A study of Homo sapiens with 6 samples.

Results

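The BCL2 family decides whether a cell's mitochondria release the proteins that start apoptosis, and 10 of its genes were followed here in MDA-MB-231 cells after knockdown of DDX18. They were the rows of the deposited table whose symbol was BCL2, BCL2L1, MCL1, BAX, BAK1, BBC3, PMAIP1, BID, BCL2L11 or BAD, taken as a fixed list of names, and all 10 of 10 were found among 36932 genes with a symbol of their own. MDA-MB-231 cells are an established human culture model of triple negative breast cancer. DDX18 encodes a nucleolar RNA helicase with a role in making the large ribosomal subunit. Messenger RNA had been sequenced from 6 libraries in 3 groups of 2. The groups were control cells, a first colony with DDX18 knocked down (colony 1) and a second such colony (colony 2), all of the same line. The labels do not name the construct used in either knockdown or in the control, and each knockdown group is a single colony. Nor do they state that the replicates came from different cultures. The p-values thus rest on differences among libraries that could be purely technical. In bulk RNA of this kind, fewer cells with a transcript and less of it per cell cannot be told apart.

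In this family, BCL2, BCL2L1 (which encodes BCL-XL) and MCL1 are survival proteins. They hold in check the effectors BAX and BAK1, which can oligomerise and permeabilise the outer mitochondrial membrane. The BH3-only proteins carry stress signals to that membrane. BCL2L11 (BIM), BBC3 (PUMA) and BID can engage the survival proteins and the effectors, PMAIP1 (NOXA) binds mainly MCL1, and BAD binds BCL2 and BCL-XL. Much of their control acts on the proteins, such as cleavage of BID, phosphorylation of BAD and rapid turnover of MCL1, and these data hold mRNA only. BCL2L1, MCL1 and BCL2L11 are spliced into isoforms of different activity, which a value per gene does not separate.

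The libraries held 8843847 to 11902437 implied reads, and 1 read was worth 0.0815 to 0.108 CPM, the unit of reads scaled to the size of the library. DDX18 stood at 78.8 and 91.7 CPM in control, 17.6 and 14.0 CPM in colony 1 and 14.7 and 15.1 CPM in colony 2, a log2 change of −2.40 for both colonies against control (SE 0.11, limma adjusted p = 3.9e-15). Of the markers listed for a mesenchymal triple negative line, all 6 were tested. Their summed CPM was 4550 to 4616 in control and 4817 to 4930 in the knockdown libraries. This sum covers opposite moves for both colonies against control. CD44 (log2 change 0.74, limma adjusted p = 4e-12) and EGFR (0.85, adjusted p = 5.9e-12) were called higher. LGALS1 (−0.35, adjusted p = 4.1e-06) and S100A4 (−0.28, adjusted p = 0.00047) were called lower, and VIM and CAV1 were not called. LGALS1 was also lower in colony 2 than in colony 1 (−0.52, limma adjusted p = 5.6e-06). The 6 genes listed as low in such a line summed to 166 to 176 CPM in control and 144 to 151 CPM in the knockdown libraries. Of these, PGR was at 0 in all libraries and ESR1 and FOXA1 had means under 1 CPM, whereas ERBB2 averaged 129.5 CPM in control and 108 CPM in the knockdown libraries, GATA3 24.98 and 24.4 CPM, and EPCAM 16.6 and 14.1 CPM. Leukocyte markers summed to 5.73 to 8.56 CPM and endothelial ones to at most 0.409 CPM. Fibroblast markers summed to 52.0 to 56.7 CPM in control and 25.1 to 32.8 CPM in the knockdown libraries, but did not move together. From control to knockdown means, COL1A1 went from 35.1 to 13.0 CPM and LUM from 7.23 to 1.56 CPM. PDGFRB went the other way, from 10.9 to 14.6 CPM, and DCN, PDGFRA and COL3A1 had means under 1 CPM. The part of these markers in the results below was not tested.

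Sequence around an annotated start is shown for BCL2L11, BAX and PMAIP1, because these had the largest changes among the 10 members. The windows come from RefSeq on GRCh38.p14 and run from 250 bases before to 50 bases after an annotated start. They lie at chr2:111120664-111120963, chr19:48954625-48954924 and chr18:59899746-59900045, all on the plus strand. Capitals mark a FOXO site (GTAAACA) in BCL2L11, E-boxes (CACGTG) in BAX and the core of a cAMP response element (TGACGT, here on the minus strand) in PMAIP1.
BCL2L11 promoter: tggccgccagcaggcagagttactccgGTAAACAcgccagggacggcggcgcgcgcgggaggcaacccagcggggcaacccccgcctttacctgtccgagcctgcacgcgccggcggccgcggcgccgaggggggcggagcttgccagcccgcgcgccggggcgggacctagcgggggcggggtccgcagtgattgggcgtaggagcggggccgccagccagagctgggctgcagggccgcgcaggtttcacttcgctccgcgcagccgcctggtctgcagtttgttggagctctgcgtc
BAX promoter: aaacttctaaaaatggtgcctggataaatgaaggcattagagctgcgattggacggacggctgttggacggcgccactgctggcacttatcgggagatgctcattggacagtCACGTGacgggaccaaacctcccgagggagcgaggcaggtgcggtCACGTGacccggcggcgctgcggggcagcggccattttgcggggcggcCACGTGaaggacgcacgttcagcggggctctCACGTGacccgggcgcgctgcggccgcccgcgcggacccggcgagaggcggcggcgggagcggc
PMAIP1 promoter: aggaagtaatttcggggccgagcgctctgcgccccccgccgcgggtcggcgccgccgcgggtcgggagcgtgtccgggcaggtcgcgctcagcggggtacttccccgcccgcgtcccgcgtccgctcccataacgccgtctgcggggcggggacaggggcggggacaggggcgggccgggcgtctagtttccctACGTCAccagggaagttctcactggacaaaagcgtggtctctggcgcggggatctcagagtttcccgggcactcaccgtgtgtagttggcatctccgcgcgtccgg

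Both strands of 35116 such windows were searched with motifs that were chosen after these sequences had been seen, and 9 of the 10 members, all but MCL1, had windows, 15 in all. A member was counted if any of its windows held the motif, whereas the percentages count single windows, so the 2 are unlike measures. The E-box, a site of MYC and related factors, stood in 7.26% of all windows and in a window of BAX, BBC3 and BID. BAX held 4 of them in its window, a number that only 5 of the 35116 windows reached. FOXO sites stood in 3.42% of windows and, among the members, in BCL2L11. The cAMP core was in 7.98% of windows, BAD and PMAIP1 included, while the full element TGACGTCA, which contains it, was in 1.85% and in no member. Sites of E2F factors (TTTCCCGC, TTTGGCGC or TTTCGCGC) were in no member window either, against 1.63%, 0.652% and 0.515% of all windows. A GC box (GGGGCGGGG) was in 15.7% of windows and in a window of BAD, BCL2L11, BID and PMAIP1. A match of letters is a description and not evidence of binding.

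All 10 members passed the filter of a mean of at least 1 CPM, and the lowest value of any member in any library was 7.68 CPM. When CPM was divided by the exon length of each gene, BCL2L1 was the most abundant member in every group, with 166.5 ± 3.43 CPM per kilobase (kb) in control, 153 ± 0.259 in colony 1 and 153.8 ± 1.42 in colony 2 (SD, n = 2). At the other end, BCL2 held 0.737 ± 0.114, 0.708 ± 0.0160 and 0.750 ± 0.0973 CPM per kb in the same order of groups. The control order ran BCL2L1, PMAIP1, MCL1, BAD, BAX, BAK1, BID, BBC3, BCL2L11 and BCL2, and no neighbours in it overlapped. In colony 1, MCL1 came second at 89.7 ± 1.70 CPM per kb, and PMAIP1, BAX and BAD followed with overlapping neighbours. In colony 2, MCL1 stood at 90.1 ± 3.32 and was followed by BAX at 63.3 ± 0.944, then PMAIP1 at 58.7 ± 3.53 and BAD at 55.8 ± 0.803, of which the last pair overlapped. BCL2L11 lay below BBC3 in control and above it in both colonies. These orders rest on annotated exon lengths, since the transcripts used in these cells were not measured.

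The comparison of knockdown with control asked which members change when DDX18 is low. BCL2L11, BAX, MCL1 and BAK1 rose and PMAIP1 fell in both colonies. The largest change was in BCL2L11, from 19.7 ± 3.15 CPM in control (SD, n = 2) to 40.4 ± 3.15 CPM over the knockdown libraries (SD, n = 4). Thus 1 of 3 survival members, 2 of 2 effectors and 2 of 5 BH3-only members were called for both colonies against control. Together 5 of 10 members were called, beside 44.7% of all 13675 genes tested, so the count is close to the background and says nothing particular about the family. Higher members numbered 4, against 23.2% of all genes, and lower members 1, against 21.5%. In CPM, 6 of 10 members had all 4 knockdown libraries beyond both controls, beside 53.6% of all genes, with 4 above (27.8% of all genes) and 2 below (25.8%).

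**Figure D1:**
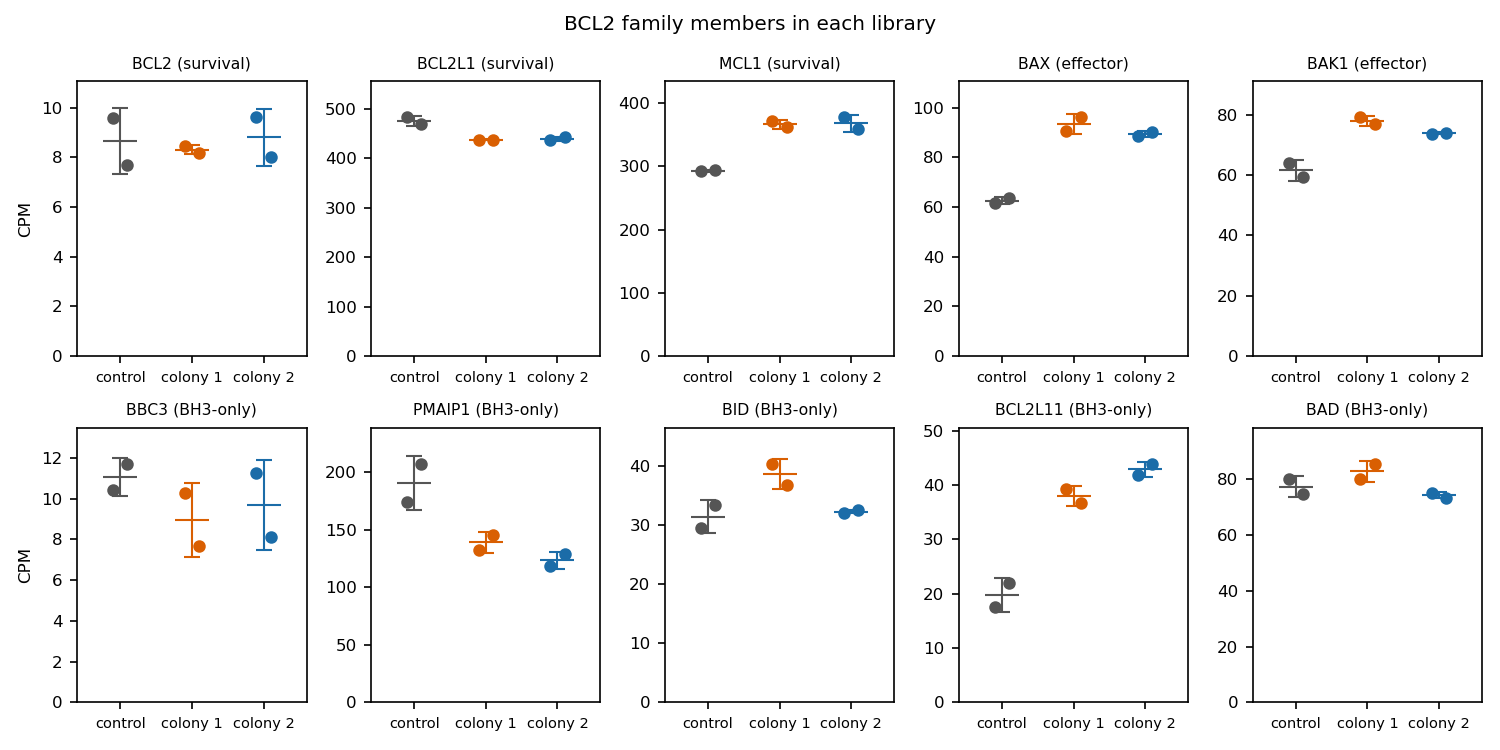
CPM of each of the 10 members (y axis from 0, a separate scale for each gene) in control, colony 1 and colony 2. Points are libraries, with replicate 1 on the left, and bars are the mean with SD (n = 2). BCL2L11, BAX, MCL1 and BAK1 lie above both controls in all 4 knockdown libraries, and PMAIP1 and BCL2L1 lie below.

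Among the survival members, MCL1, a short-lived protein that restrains BAK1 and BIM, measured 292 and 294 CPM in control cells. It reached 371 and 362 CPM in colony 1 and 378 and 358 CPM in colony 2. Every knockdown library lay above both controls, and the groups of knockdown libraries overlapped each other. Both colonies together differed from control by 0.32 on the log2 scale (SE 0.05, limma adjusted p = 2.5e-05), which is 1.25-fold (95% confidence interval 1.16 to 1.35). Taken singly, colony 1 changed by 0.32 (adjusted p = 0.00021) and colony 2 by 0.33 (adjusted p = 0.00016), and all contrasts with control share the same 2 control libraries.

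BCL2L1 held 483 and 469 CPM in control, 438 and 437 in colony 1 and 437 and 443 in colony 2. Its knockdown libraries all lay below both controls, by little. The log2 change of −0.12 (95% interval −0.23 to −0.01) missed the threshold (limma adjusted p = 0.0699), and it was called when each library was centred on its median (−0.17, adjusted p = 0.0123) or with the replicate number as a block (adjusted p = 0.0124). A noncoding RNA on the opposite strand, ABALON, shares 43.0% of the exon bases of BCL2L1 and was not analysed here, so the value of BCL2L1 is uncertain if the counting ignored strand.

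BCL2 was the scarcest member, at 9.60 and 7.71 CPM in control, 8.45 and 8.18 in colony 1 and 9.61 and 7.999 in colony 2. The 3 groups overlapped. These values rest on 74 to 118 implied reads a library. The log2 change of −0.01 had a 95% interval of −0.34 to 0.32 (limma adjusted p = 0.965). As a fold the interval runs from 0.792 to 1.25, so a change within it could not be told from none. Whether depth or the spread between libraries sets its width was not tested.

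Both effectors rose. BAX, which moves from the cytosol to mitochondria when activated, stood at 61.5 and 63.6 CPM in control, 90.5 and 96.2 in colony 1 and 88.5 and 90.4 in colony 2. All knockdown libraries lay far above both controls relative to the spread within groups. The log2 change was 0.54 (SE 0.07, limma adjusted p = 5.9e-07), or 1.45-fold (95% interval 1.31 to 1.61). It was 0.57 in colony 1 (adjusted p = 3.3e-06) and 0.51 in colony 2 (adjusted p = 1.5e-05). BAX lies on chromosome 19 at 48954815 to 48961798 on the plus strand (GRCh38, GENCODE 29).

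BAK1, the effector that resides in the mitochondrial membrane, had 64.2 and 59.3 CPM in control, 79.2 and 77.0 in colony 1 and 73.7 and 74.2 in colony 2. Here too the knockdown libraries did not overlap the controls, with a smaller distance than for BAX. The log2 change was 0.30 (SE 0.07, limma adjusted p = 0.0016) for both colonies, 0.34 in colony 1 (adjusted p = 0.0024) and 0.26 in colony 2 (adjusted p = 0.0163). In colony 2 the call did not survive omission of control replicate 2 (0.20, adjusted p = 0.125), of replicate 1 of colony 2 (0.26, adjusted p = 0.0655) or of its replicate 2 (0.25, adjusted p = 0.0813). BAK1 lies on the minus strand of chromosome 6 at 33572547 to 33580293, and the pseudogene GGNBP1 on the other strand, which shares 4.11% of its exon bases, was at 0 in 5 libraries and at 0.163 CPM in colony 2 replicate 1.

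The BH3-only members moved in different directions. BCL2L11, whose product BIM binds all the main survival proteins, stood at 17.5 and 21.9 CPM in control, 39.2 and 36.7 in colony 1 and 41.9 and 43.9 in colony 2. No knockdown library came near the control range, and colony 2 lay above colony 1. The log2 change was 1.006 (SE 0.10, limma adjusted p = 1.2e-08) for both colonies, 0.92 in colony 1 (adjusted p = 8.3e-07) and 1.09 in colony 2 (adjusted p = 4.9e-08). The difference between the colonies was 0.17 (95% interval −0.07 to 0.42, adjusted p = 0.567). BCL2L11 lies on the plus strand of chromosome 2 at 111119378 to 111168447, and 10.9% of its exon bases are shared with MIR4435-2HG, a long noncoding RNA on the opposite strand. MIR4435-2HG itself was lower in the knockdown (log2 change −0.36, limma adjusted p = 0.00013), the direction opposite to that of BCL2L11. It held 109 and 122 CPM in control, 94.1 and 102 in colony 1 and 79.9 and 82.8 in colony 2. As for BCL2L1, the value of BCL2L11 is uncertain if the counting ignored strand.

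PMAIP1, a stress-induced gene whose product NOXA neutralises MCL1, held 174 and 207 CPM in control, 132 and 145 in colony 1 and 118 and 129 in colony 2. All knockdown libraries were below both controls, and colony 2 was lowest. The log2 change was −0.53 (SE 0.07, limma adjusted p = 1.3e-06), which leaves 0.691 of the control level (95% interval 0.623 to 0.765). In colony 1 it was −0.45 (adjusted p = 0.00011) and in colony 2 −0.62 (adjusted p = 1.6e-06), with a difference between colonies of −0.17 (adjusted p = 0.368). The gene lies on the plus strand of chromosome 18 at 59899948 to 59904306.

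BID, which caspase-8 cleaves to link death receptors with mitochondria, had 29.5 and 33.4 CPM in control, 40.4 and 36.9 in colony 1 and 32.1 and 32.5 in colony 2. Colony 1 lay above both controls and colony 2 within their range. It rose in colony 1 (log2 change 0.29, SE 0.11, limma adjusted p = 0.0417) and stood at 0.04 in colony 2 (adjusted p = 0.807), but the difference between the colonies, −0.25, was not called (adjusted p = 0.311). That call in colony 1 failed on omission of control replicate 1 (0.20, adjusted p = 0.268), of replicate 1 of colony 1 (0.22, adjusted p = 0.241) or of its replicate 2 (0.35, adjusted p = 0.0576), with no filter on low values (adjusted p = 0.0688) and with median centring (0.24, adjusted p = 0.0959).

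BBC3, which encodes the potent death inducer PUMA, held 10.4 and 11.7 CPM in control, 10.3 and 7.68 in colony 1 and 11.2 and 8.11 in colony 2, with overlapping groups and a log2 change of −0.24 (95% interval −0.57 to 0.09, limma adjusted p = 0.242). In both colonies replicate 2 was the lower library. BAD, whose product is held inactive by survival kinases, stood at 79.9 and 74.5 CPM in control, 80.0 and 85.4 in colony 1 and 74.8 and 73.3 in colony 2. Its groups overlapped, and the log2 change of 0.02 had a 95% interval of −0.13 to 0.17 (limma adjusted p = 0.841). GPR137 on the opposite strand shares 23.7% of the exon bases of BAD and had 107 ± 9.56 CPM in control and 113 ± 6.49 CPM in the knockdown libraries, so BAD is uncertain where strand was ignored.

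**Figure D2:**
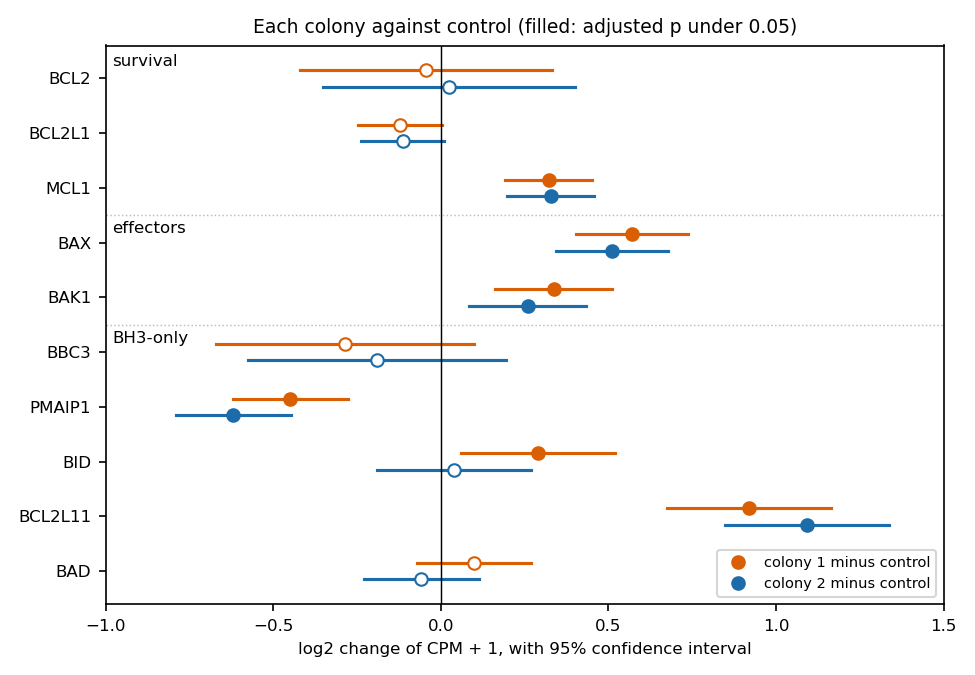
Log2 change of CPM + 1 (x axis) of each member (y axis, grouped by role) in colony 1 and in colony 2 against the same 2 control libraries, with 95% confidence intervals from limma. Filled points had an adjusted p under 0.05. MCL1, BAX, BAK1 and BCL2L11 lie to the right of 0 and PMAIP1 to the left in both colonies, and BID is filled in colony 1.

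For colony 1 alone, 6 of 10 members were called, 5 higher and 1 lower, beside 39.3% of all genes tested (21.1% higher and 18.3% lower). For colony 2 alone, 5 of 10 were called, 4 higher and 1 lower, beside 40.3% (20.5% higher and 19.8% lower). The direct comparison of colony 2 with colony 1 called 0 of 10 members by limma, and 1, BID, had an unadjusted p under 0.05, beside 2.28% of all genes called (0.629% higher and 1.65% lower). The median log2 change for both colonies against control over the 3 survival members was −0.01, that of the 2 effectors 0.42 and that of the 5 BH3-only members 0.02, against 0.01 over all genes tested.

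Length-scaled levels were also summed over the 10 members in each library. Survival members made up 50.8% and 48.9% of this sum in control, 49.6% and 48.3% in colony 1 and 51.4% and 50.7% in colony 2. Effectors held 15.3% and 14.8% in control, 20.2% and 20.5% in colony 1 and 20.1% and 20.3% in colony 2, with no overlap between control and knockdown. BH3-only members, led by PMAIP1 and BAD, held 33.95% and 36.3% in control, 30.2% and 31.2% in colony 1 and 28.5% and 28.99% in colony 2, all lower than both controls. This share does not describe each member. From control to colony 1 and colony 2, PMAIP1 went from 90.7 to 66.1 and 58.7 CPM per kb and BBC3 from 5.29 to 4.28 and 4.62. BAD went from 58.2 to 62.3 and 55.8, BID from 11.2 to 13.8 and 11.5, and BCL2L11 from 3.23 to 6.23 and 7.04. Per kb, the ratio of PMAIP1 to MCL1 was 1.16 and 1.37 in control and between 0.608 and 0.782 in the knockdown libraries. The ratio of BAX to BCL2L1 was 0.258 and 0.274 in control and 0.410 to 0.446 in the knockdown. Since these sums and ratios were formed from members already described, they carry no test.

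**Figure D3:**
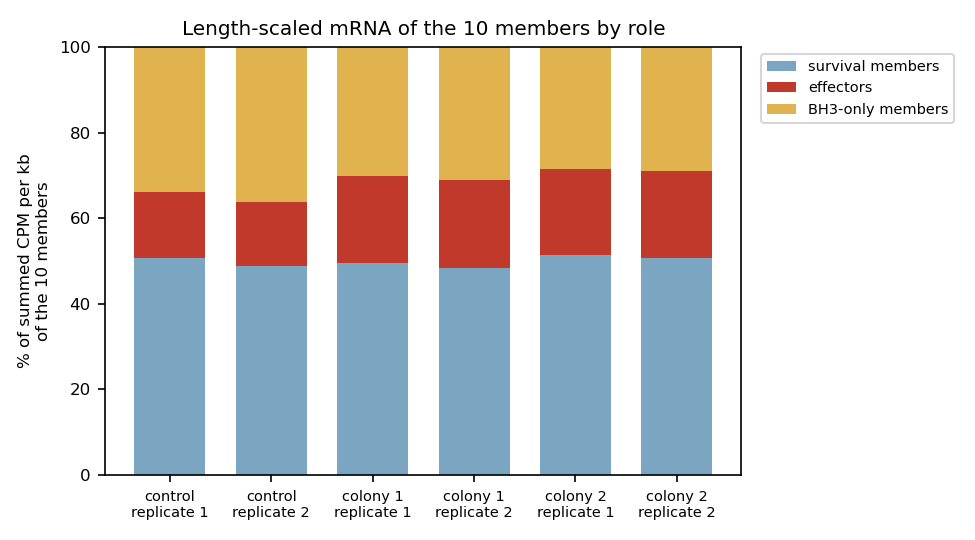
Share of the summed CPM per kb of the 10 members (y axis, percent) that survival members, effectors and BH3-only members took in each of the 6 libraries (x axis). The effector share is 14.8% to 15.3% in control and 20.1% to 20.5% in the knockdown libraries.

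By likeness of pattern, the 3 genes closest to BCL2L11 among 8637 candidates (tested, and averaging 20 CPM or more in their highest group) were SREK1IP1, PPTC7 and NUDT21, with Pearson's r of 0.999, 0.997 and 0.997 over the 6 libraries on the log2(CPM + 1) scale. SREK1IP1, a splicing regulatory interacting protein, went from 19.1 and 23.5 CPM in control to 39.2 to 46.8 CPM in the knockdown libraries. These 3 were picked as the closest, so with 6 libraries in 3 groups their r is a description without a test. An r above 0.99 was reached by 39 of the 8637 candidates.

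The wider family and the pathway were read from lists of genes, set beside the 44.7% of all genes called. Of 12 other relatives, 7 were tested, and 1 rose and 3 fell for both colonies against control. BNIP3L, a mitophagy receptor, rose from 85.2 and 80.7 CPM in control to 152 and 138 in colony 1 and 152 and 134 in colony 2 (log2 change 0.78, limma adjusted p = 8.4e-10). BCL2L13, another mitophagy receptor of the outer membrane, fell from 50.2 ± 3.92 CPM to 38.8 ± 4.90 and 40.8 ± 0.891 (−0.33, adjusted p = 0.0052), a call lost without control replicate 2 (−0.25, adjusted p = 0.0919). BNIP3, the close relative of BNIP3L, fell by 0.32 and BOK, an effector-like member, by 0.19 (adjusted p = 0.038). BOK was called in neither colony alone (adjusted p = 0.0941 and 0.0652), and its call was lost with no filter on low values (0.0688), with the knockdown libraries as 1 group (0.0617) and without control replicate 1 (0.406), colony 1 replicate 2 (0.0800) or colony 2 replicate 2 (0.0930). BMF, a BH3-only gene, had 7.87 and 6.21 CPM in control, 4.12 and 3.94 in colony 1 and 7.90 and 5.19 in colony 2. It fell in colony 1 (−0.67, adjusted p = 0.016) and was not called in colony 2 (−0.11, adjusted p = 0.73), between the colonies (0.56, adjusted p = 0.211) or for both against control (−0.39, adjusted p = 0.0965), where it was called without colony 2 replicate 1 (−0.52, adjusted p = 0.0388). BCL2L2 and BCL2L12 were not called, with BCL2L2 at 37.4 ± 3.69, 40.6 ± 1.87 and 42.8 ± 1.92 CPM in control, colony 1 and colony 2. BCL2A1, BCL2L10, HRK, BIK and BCL2L14 had means under 1 CPM and were not tested, and BCL2L10 was at 0 in all 6 libraries.

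Downstream of the mitochondria, 3 genes of the apoptosome and caspase list that are described here fell for both colonies against control. Taken singly, CASP9 was not called in colony 1 (limma adjusted p = 0.0736) and CASP2 was not called in colony 2 (limma adjusted p = 0.0762). APAF1, the scaffold of the apoptosome, fell from 46.4 ± 1.62 CPM to 30.7 ± 5.82 and 32.5 ± 4.94 (−0.55, limma adjusted p = 0.00022). CASP9, the initiator caspase it activates, and CASP2 fell by 0.50 and 0.24, the call of CASP2 being lost without control replicate 1 (adjusted p = 0.154) or colony 2 replicate 1 (adjusted p = 0.0691), while cytochrome c (CYCS) and CASP6 were not called, at 0.02 and 0.13.

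Among inhibitors of apoptosis proteins and their antagonists, 4 of 8 tested genes rose and 0 fell for both colonies against control. The median was 0.21, and of all genes 23.2% were called higher and 21.5% lower. In colony 1 alone 4 were called higher and 1 lower, beside 21.1% and 18.3%. In colony 2 alone 4 were called higher and 0 lower, beside 20.5% and 19.8%. The lower one, BIRC6, changed by −0.19 in colony 1 (limma adjusted p = 0.0336) and by 0.05 in colony 2 (adjusted p = 0.595). BIRC3 and BIRC2, the ubiquitin ligases cIAP2 and cIAP1, rose by 1.31 (adjusted p = 9.6e-12) and 0.81 (adjusted p = 2.4e-11). In CPM, BIRC3 went from 29.1 and 31.9 in control to 69.2 to 87.5 in the knockdown libraries and BIRC2 from 133 and 134 to 221 to 243, with no overlap. BIRC5, survivin, which also serves in mitosis, rose by 0.55 and the mitochondrial protease HTRA2 by 0.22 (adjusted p = 0.0238). The HTRA2 call was lost in 6 alternatives, with adjusted p of 0.0534 to 0.119: median centring, the knockdown libraries as 1 group, and omission of control replicate 1, control replicate 2, colony 1 replicate 1 or colony 2 replicate 2. Alone, HTRA2 was called in colony 1 (adjusted p = 0.0096) and not in colony 2 (adjusted p = 0.228), with no call between the colonies (adjusted p = 0.446).

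Of the death receptor pathway, 3 of 13 genes rose and 2 fell, and the 5 calls dropped to 3 with median centring and without control replicate 1, control replicate 2 or colony 1 replicate 2. In colony 1 alone 3 were called higher and 2 lower, beside 21.1% and 18.3% of all genes. In colony 2 alone 0 were called higher and 2 lower, beside 20.5% and 19.8%. CASP10, an initiator caspase, fell from 14.4 ± 1.51 CPM to 7.81 ± 0.239 and 7.95 ± 0.527 (−0.80, limma adjusted p = 8.8e-05). TNFRSF1A, the main receptor of TNF, fell by 0.45 (adjusted p = 2.1e-05). TNFRSF10A, a TRAIL receptor, rose by 0.26 (adjusted p = 0.033), a call that was lost with median centring (adjusted p = 0.0832) and without control replicate 1 (0.0795), control replicate 2 (0.119), colony 1 replicate 2 (0.165) or colony 2 replicate 2 (0.0890).

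Partners at the outer membrane had 2 of 8 genes higher and 3 lower. VDAC3 and VDAC2, channels of which VDAC2 binds BAK1, fell by 0.47 (adjusted p = 2.1e-05) and 0.40 (adjusted p = 2.3e-05). MTCH2, a receptor for truncated BID, rose by 0.29 (adjusted p = 0.00077). Regulators of the turnover of MCL1 and BH3-only proteins had 1 of 11 higher and 2 lower. USP13, a deubiquitinase that can stabilise MCL1, rose from 35.5 and 27.7 CPM to 48.6 to 56.1 CPM in the knockdown libraries (0.71, adjusted p = 8.9e-07), and DUSP6, an ERK phosphatase, fell by 0.32 (adjusted p = 4.9e-05). GSK3B, the other gene of this list called lower, fell by 0.23 (limma adjusted p = 0.0188), a call that not every alternative kept. Taken singly, GSK3B was called in colony 1 (limma adjusted p = 0.0125) and not in colony 2 (limma adjusted p = 0.14). HUWE1, FBXW7 and USP9X, which set the stability of MCL1, were not called.

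Among transcription factors known to act on BCL2 family genes, 6 of 14 tested rose and 3 fell. RELA, among those that fell, changed by −0.17 (limma adjusted p = 0.0421) and was called in neither colony alone (0.0561 and 0.125). Its call was lost with no filter on low values and with the knockdown libraries as 1 group. STAT3, which drives survival genes such as MCL1 and BCL2L1 in many cells, rose from 90.3 and 83.5 CPM to 215 and 226 in colony 1 and 229.8 and 216 in colony 2 (1.34, adjusted p = 4.8e-15). E2F1 rose by 0.92 (adjusted p = 2e-10), and ATF3 fell by 0.88 (adjusted p = 0.00046). FOXO3, which can induce BCL2L11, missed the threshold for both colonies (−0.22, adjusted p = 0.0577) and was called lower in colony 1 (−0.29, adjusted p = 0.0335) but not in colony 2 (−0.15, adjusted p = 0.29), a difference between colonies that was not called (adjusted p = 0.612). For both colonies it was called with median centring (adjusted p = 0.0233), with the replicate block (0.0141) and without control replicate 1 (0.00754) or colony 1 replicate 2 (0.0462). MYC fell by 0.20 for both colonies (limma adjusted p = 0.0121), a call lost without control replicate 1 or control replicate 2. Taken singly, MYC was called lower in colony 2 (−0.29, limma adjusted p = 0.0024) and not called in colony 1 (−0.11, limma adjusted p = 0.249).

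**Figure D4:**
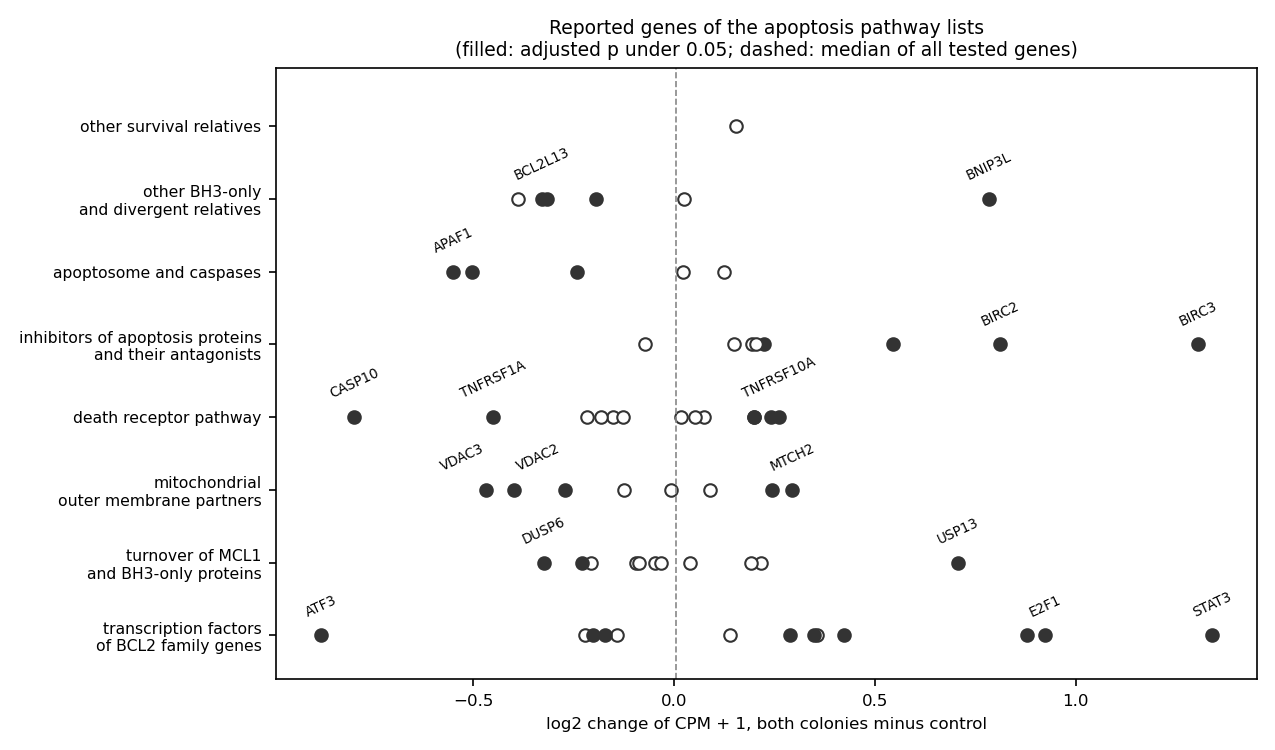
Log2 change of CPM + 1, both colonies minus control (x axis), of the genes of the pathway lists that are reported here (y axis). Filled points had an adjusted p under 0.05, the dashed line is the median of all tested genes (0.01), and the named genes are among the largest called changes of each list. ATF3 at −0.88 and STAT3 at 1.34 are the lowest and highest points drawn.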

How the data were processed

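The values are CPM, as the authors deposited them. The submitters' processing notes list Trim Galore, HISAT2 and the builds hg38 and mm10. Which program, annotation and strand setting produced the counts is not given in the sources used here. The libraries were primed at random on poly(A) RNA, per the labels' protocols. The table has 52142 rows, of which 15200 without a symbol (2.50% to 2.62% of the CPM) and 10 with 5 repeated symbols were left out. Every value was a whole multiple of the smallest value of its column (within 1e-06), from which implied reads were taken. The confidence intervals are limma's and rest on the spread between libraries. Replicates differed by more than counting error, with a chi-square per gene of 3.00 to 3.30.

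All genes averaging 1 CPM or more were fitted as log2(CPM + 1) with limma-trend and a robust spread shared by the 3 groups. Adding 1 CPM understates log2 changes of weakly expressed genes. Control was compared with both colonies and with each, and the colonies with each other, in two-sided tests with Benjamini-Hochberg adjustment over all 13675 genes and a threshold of 0.05. The spread between the colonies is not in the error of the contrast of both colonies. The members and lists were chosen with earlier results of these data known. Every member is named, DDX18 first, and from each pathway list the 2 called genes with the largest change and the largest in the other direction; other genes were named after their values were seen. Some genes of the pathway lists are not reported here. Lengths and positions came from GENCODE 29 (GRCh38), with exons of the basic set merged for lengths. The fit was tested on simulated data. Software was R 4.3.3, limma 3.58.1, statmod 1.5.0, Python 3.11.15, pandas 2.3.3 and matplotlib 3.10.9. Alternatives are given in the closing section; the listed count tests were not run.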

Additional observations from a re-analysis of the deposited data

Results flagged for a closer look

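By limma's direct test, colony 2 differed from colony 1 for 2 genes of the pathway lists and for none of the 10 members. The 2 genes were 1 of 8 tested inhibitors of apoptosis proteins and antagonists and 1 of 8 outer membrane partners. Of all genes tested, 2.28% were called in this comparison. Each knockdown group is a single colony, so whether such a difference comes from the knockdown was not tested. XIAP, an inhibitor of caspases, stood at 48.7 and 52.0 CPM in control, 53.5 and 48.4 in colony 1 and 65.9 and 65.0 in colony 2, a difference of 0.36 on the log2 scale (adjusted p = 0.0367). The call was lost with no filter on low values (adjusted p = 0.0552) and without colony 1 replicate 2 (0.315), colony 2 replicate 1 (0.232) or colony 2 replicate 2 (0.174). BCAP31, a protein of the endoplasmic reticulum that caspase-8 cleaves, held 245 and 251 CPM in control, 292 and 295 in colony 1 and 249.8 and 224 in colony 2, a difference of −0.31 (adjusted p = 0.0104). Its call was lost without colony 1 replicate 2 (adjusted p = 0.0688) or colony 2 replicate 2 (0.251).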

How the results depend on the processing

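The 5 members called for both colonies against control were called in all 15 alternatives that were run, with log2 changes of 0.85 to 1.16 for BCL2L11, 0.49 to 0.56 for BAX, 0.28 to 0.34 for MCL1, 0.24 to 0.35 for BAK1 and −0.66 to −0.41 for PMAIP1. The edgeR and DESeq2 alternatives were not run, on the deposited CPM or on the implied reads. Leaving out 1 library at a time, with a lone library assumed to vary like the other groups, gave 5 members for both colonies, 5 to 6 for colony 1, 4 to 5 for colony 2 and 0 between colonies. The number of all genes called between the colonies was 312 and ranged from 137 (without colony 2 replicate 1) to 452 (without control replicate 1), with 168 without colony 2 replicate 2 and 170 without colony 1 replicate 2.

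Replicate numbers are shared by the 3 groups, and the differences between replicates 2 and 1 correlated between groups at 0.119, 0.128 and 0.159 over genes; with 2 numbers this does not show pairing. With the replicate block, 1036 genes differed between the colonies, 7070 were called for both colonies against control, and the called members numbered 6, 7 and 6 for both colonies, colony 1 and colony 2, with BCL2L1 added in each.

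Changes of sign occurred only in members, or contrasts of DDX18, that were not called. Median centring turned BAD for both colonies to −0.028, and in colony 2 BCL2 to −0.019 and BID to −0.0044. Without 1 library, BCL2 ranged from −0.15 to 0.13 for both colonies, −0.19 to 0.097 in colony 1, −0.12 to 0.17 in colony 2 and −0.049 to 0.19 between colonies. BAD ranged from −0.030 to 0.070 for both colonies. In colony 2, BBC3 ranged from −0.40 to 0.023 and BID from −0.047 to 0.13. Between colonies, BCL2L1 ranged from −0.0023 to 0.017, MCL1 from −0.032 to 0.043, BBC3 from −0.12 to 0.31 and DDX18 from −0.23 to 0.080. BCL2 and BBC3 had the fewest implied reads of the members, at most 118 and 138 a library. The part of depth in these changes of sign was not tested.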
